A study of Rattus norvegicus with 30 samples.

Results

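The genes followed here carry out mitosis and the approach to it from G2, the phase between DNA replication and division. The list held 54 gene symbols, chosen by known function and with earlier results of these data known. Each gene was read from the probe set that carried its symbol alone and had the highest mean over all 30 arrays. By this rule 42 of the 54 were measured, among 14506 genes in all. The 12 that were not found were Cenpe, Cenpf, Kif18a, Spc24, Mki67, Anln, Sgo1, Sgo2, Ckap2, Ncapg, Ncapg2 and Ncaph. Of the measured genes, 12 act in mitotic entry, 6 in the spindle checkpoint and mitotic exit, 6 at the kinetochore, 5 on the spindle, 10 in cytokinesis and the chromosomal passenger complex, and 3 on chromosome structure.

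Total RNA came from primary cultures of rat inner medullary collecting duct cells, the epithelium that concentrates urine in a kidney region of high osmolality. In 1 group, cells kept in 900 mosmol/kg medium spent 24 h back in medium of 300 mosmol/kg, and these are called returned cells. Another 4 groups were grown at 300 mosmol/kg and moved to 600 mosmol/kg, with harvest after 3, 12, 24 or 48 h. Another 2 groups were grown at 600 mosmol/kg and moved to 900 mosmol/kg, with harvest after 12 or 24 h. In the 3 remaining groups, called steady 300, steady 600 and steady 900, cells were grown at 300, 600 or 900 mosmol/kg without a move. Each of the 10 groups had 3 arrays, 1 array per sample. The labels name no strain, sex or age. The treatment label of all 30 samples names cyclosporin A, a calcineurin inhibitor, but the titles leave it out, so it is unsettled which of the cultures had the drug. Whether the replicates are separate animals, separate cultures or repeats of 1 culture is not stated either, and the p-values therefore cover the spread among these arrays, possibly only a technical one.

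A dividing cell enters mitosis when Cdk1, bound to cyclin A or B, is activated. Aurora and Polo-like kinases then drive spindle assembly, the checkpoint kinases hold the cell until every chromosome is attached, and Cdc20 directs the anaphase-promoting complex to destroy cyclin B. Most of these genes are transcribed late in the cell cycle, through FOXM1 and MYB-MuvB, so in a culture their RNA is used as a readout of how many cells are in or near division. In whole cultures, fewer cells in G2 or mitosis and less of each RNA per cell cannot be told apart.

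Arrays of a group correlated at 0.991 to 0.998, and array medians lay between 5.63 and 5.76 on the log2 scale. In most pairs of replicates the median absolute difference over genes was between 0.0815 and 0.137. Replicate 3 at 3 h after the move from 300 to 600 and replicate 9 at 12 h after the move from 600 to 900 stood apart, so the counts that rest on them are also given without them. Epithelial markers averaged 11.05 to 11.48 over the 10 groups. Markers of collecting duct principal cells averaged 7.53 in returned cells, 5.90 at 48 h after the move from 300 to 600, 9.07 in steady 900 cells, 7.97 in steady 600 cells and 5.37 in steady 300 cells. Of these 8 markers, 6 were higher in steady 900 cells than in steady 300 cells and 6 were higher in steady 600 cells than in steady 300 cells, with 0 lower in either comparison (limma, adjusted p under 0.05). Over all genes, 20.2% were higher in steady 900 cells and 13.7% in steady 600 cells than in steady 300 cells.

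Genes of mitosis were highest in returned cells and lowest after a move to higher osmolality. The median of the 42 gene means was 8.74 (log2) in returned cells. It was 6.19, 6.32, 5.71 and 5.42 at 3, 12, 24 and 48 h after the move from 300 to 600, and 5.88 and 5.99 at 12 and 24 h after the move from 600 to 900. In steady cells it was 7.32 at 900, 6.39 at 600 and 6.84 at 300. All 42 genes had their highest group mean in returned cells, and 30 had their lowest at 48 h after the move from 300 to 600. Top2a, the topoisomerase that untangles sister chromatids, spanned 4.71 on the log2 scale between its highest and lowest group, a 26.2-fold range. Cdc25c, the phosphatase that activates Cdk1, spanned 1.29, the smallest range of the 42.

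**Figure D1:**
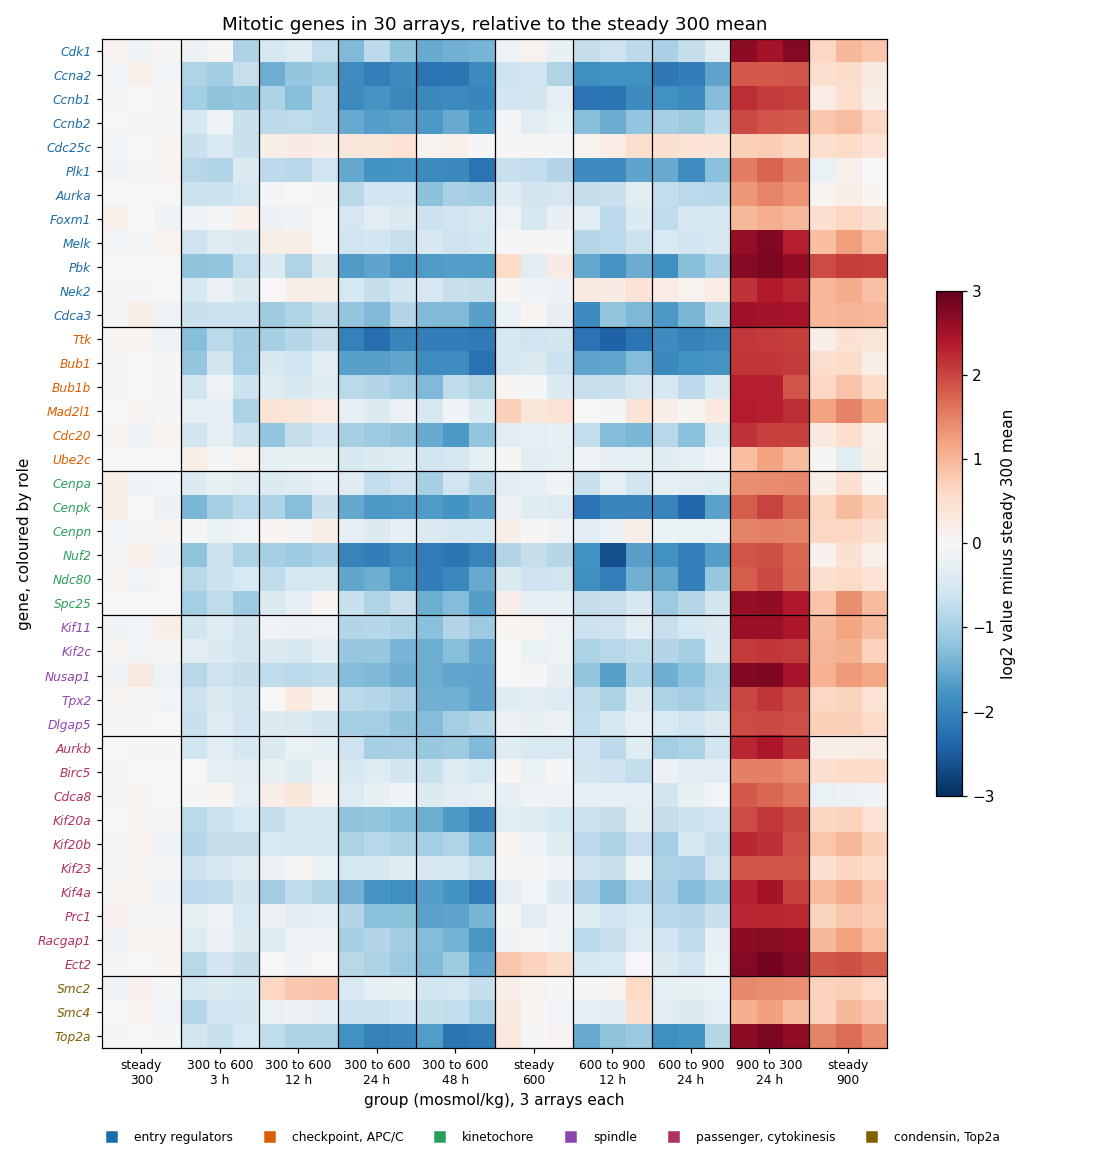
Log2 value of each of the 42 genes (down the page, grouped by role) on each of the 30 arrays (columns, in the 10 groups of 3), minus the gene's mean in steady 300 cells. Returned cells stand above all other groups in every gene, and the cells at 24 and 48 h after the move from 300 to 600 are below steady 300 cells in nearly all.

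The promoters are shown because most of the genes moved together, and late cell cycle promoters are known for a pair of short elements. These are the CHR (cell cycle genes homology region, TTTGAA), which MuvB complexes bind, and the CCAAT box, which NF-Y binds. RefSeq promoter windows of the GRCr8 assembly, from 250 bases before to 50 after the gene start, matched 35 of the 42 genes. The 140 bases that end at the gene start are printed 5′ to 3′ along the gene, with CHR letters (TTTGAA or TTCAAA) and CCAAT letters (CCAAT or ATTGG) in capitals.
Ccnb2, chr8:79981659-79981798, - strand: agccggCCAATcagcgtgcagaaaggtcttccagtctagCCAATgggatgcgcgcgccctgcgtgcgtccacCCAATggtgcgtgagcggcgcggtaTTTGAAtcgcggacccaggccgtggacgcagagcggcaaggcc
Cdk1, chr20:19265153-19265292, + strand: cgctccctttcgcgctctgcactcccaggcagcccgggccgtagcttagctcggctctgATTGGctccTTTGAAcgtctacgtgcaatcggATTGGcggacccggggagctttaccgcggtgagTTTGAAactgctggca
Cdc20, chr5:137255800-137255939, - strand: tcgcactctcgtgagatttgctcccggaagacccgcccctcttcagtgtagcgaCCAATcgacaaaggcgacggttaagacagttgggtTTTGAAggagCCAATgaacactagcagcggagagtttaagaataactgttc
Top2a, chr10:84473094-84473233, - strand: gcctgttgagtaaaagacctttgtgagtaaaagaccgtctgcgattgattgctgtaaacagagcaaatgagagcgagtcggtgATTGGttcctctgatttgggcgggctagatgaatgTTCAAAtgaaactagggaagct
Prc1, chr1:143659341-143659480, + strand: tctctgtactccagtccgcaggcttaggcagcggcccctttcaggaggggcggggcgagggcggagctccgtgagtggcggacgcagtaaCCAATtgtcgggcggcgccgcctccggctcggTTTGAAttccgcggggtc
Ccnb1, chr2:33655226-33655365, - strand: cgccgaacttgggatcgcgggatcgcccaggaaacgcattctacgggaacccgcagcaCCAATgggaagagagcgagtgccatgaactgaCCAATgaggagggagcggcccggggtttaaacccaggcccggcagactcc
Cyclin B2 (Ccnb2) held 3 CCAAT boxes and 1 CHR in these bases, and the Cdk1 stretch held 2 of each. The cyclin B1 stretch held 2 CCAAT boxes, 32 bases apart from first base to first base, and no CHR letters. Over the full windows on either strand, the CHR letters stood in 23 of the 35 genes (65.7%), against 15.2% of the 11950 array genes that had a window. The CCAAT letters stood in 27 of the 35 (77.1%), against 38.4% of the array genes. Both stood in 19 of the 35 (54.3%), against 6.31% of the array genes. The TATAAA letters of a TATA box stood in 1 of the 35 (2.86%), against 11.7%. These are matches of letters in a window and no measure of binding.

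Return from 900 to 300 mosmol/kg for 24 h raised genes of every role above steady 900 cells. Of the 42 genes 40 were higher and 0 lower (limma, adjusted p under 0.05), where 19.3% of all genes were higher and 18.5% lower, and 34 of the 42 rose at least 2-fold (2.06% of all genes). The median change was 1.33 on the log2 scale, against -0.02 over all genes. The replicates of both groups did not overlap in 41 of the 42, where 25.3% of all genes were higher without overlap. Cdc25c (0.20 ± 0.09, SE) and the condensin subunit Smc4 (0.26 ± 0.14) were not called.

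The mitotic kinases and their cyclins showed the size of the change. Aurkb, the kinase of the chromosomal passenger complex that corrects wrong attachments, had log2 values of 9.22, 9.39 and 9.15 in returned cells, against 7.17, 7.17 and 7.18 in steady 900 cells. Cdk1, the kinase that starts mitosis, had 8.92, 8.72 and 8.99 in returned cells, against 6.84, 7.20 and 7.06 in steady 900 cells. Every returned array lay above every steady 900 array for both genes, and the changes were 2.08 ± 0.11 for Aurkb (4.22-fold, limma, adjusted p = 2.3e-14) and 1.84 ± 0.18 for Cdk1 (3.58-fold, limma, adjusted p = 1.34e-09). Ccnb1, cyclin B1, stood at 10.22, 10.11 and 10.04 in returned cells and at 8.21, 8.50 and 8.20 in steady 900 cells. Plk1, the Polo-like kinase, stood at 9.33, 9.55 and 9.31 in returned cells and at 7.60, 7.94 and 7.79 in steady 900 cells. Foxm1, a transcription factor of late cell cycle genes, had 7.53, 7.63 and 7.54 in returned cells, against 7.03, 7.16 and 7.01 in steady 900 cells. The Foxm1 change of 0.50 ± 0.11 was among the smallest that were called.

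Checkpoint and passenger genes rose as well, and all 6 checkpoint genes and all 10 cytokinesis genes passed the test. Cdc20, the activator of the anaphase-promoting complex, had 9.08, 8.96 and 8.95 in returned cells, against 7.20, 7.40 and 7.06 in steady 900 cells. Ttk, the kinase at the head of the checkpoint, had 8.15, 8.12 and 8.10 in returned cells, against 6.21, 6.47 and 6.39 in steady 900 cells. Neither gene had overlapping replicates, with changes of 1.78 ± 0.17 for Cdc20 and 1.77 ± 0.10 for Ttk. Cdca8 (borealin), a targeting subunit of the passenger complex, had 7.78, 7.67 and 7.54 in returned cells, against 5.74, 5.75 and 5.82 in steady 900 cells. Birc5 (survivin), its partner in that complex, had 7.07, 7.08 and 6.98 in returned cells, against 6.07, 6.10 and 6.11 in steady 900 cells. Among these 3 passenger genes, Aurkb and Cdca8 (1.89 ± 0.10) changed more than Birc5 (0.95 ± 0.09), a difference between genes that was not tested. At the kinetochore Nuf2 led with 1.60 ± 0.16, on the spindle Nusap1, which bundles its microtubules, with 1.53 ± 0.14, and on chromosomes Top2a with 1.20 ± 0.17. Bub1, a checkpoint kinase that marks the kinetochore, had 8.80, 8.79 and 8.74 in returned cells, against 7.17, 7.18 and 6.83 in steady 900 cells. Ccna2, cyclin A2, had 8.81, 8.80 and 8.86 in returned cells, against 7.5, 7.51 and 7.24 in steady 900 cells.

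Returned cells and steady 300 cells were in medium of the same osmolality when they were harvested, and returned cells were far higher. All 42 genes were higher (limma, adjusted p under 0.05), where 20.4% of all genes were higher and 22.2% lower, and 41 rose at least 2-fold (4.16% of all genes), with a median of 2.09. Ect2, the exchange factor that activates RhoA for the cleavage furrow, had 9.66, 9.78 and 9.65 in returned cells, against 6.88, 6.89 and 6.96 in steady 300 cells. Its change of 2.79 ± 0.12 (6.90-fold, limma, adjusted p = 2.77e-17) was the largest of the 42, and that of Cdc25c (0.70 ± 0.09) the smallest. The leading genes of the other roles were Pbk in entry (2.73 ± 0.17), Top2a on chromosomes (2.72 ± 0.17), Nusap1 on the spindle (2.69 ± 0.14), Spc25 at the kinetochore (2.56 ± 0.15) and Mad2l1 in the checkpoint (2.30 ± 0.14). This comparison and the previous one share the returned arrays.

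**Figure D2:**
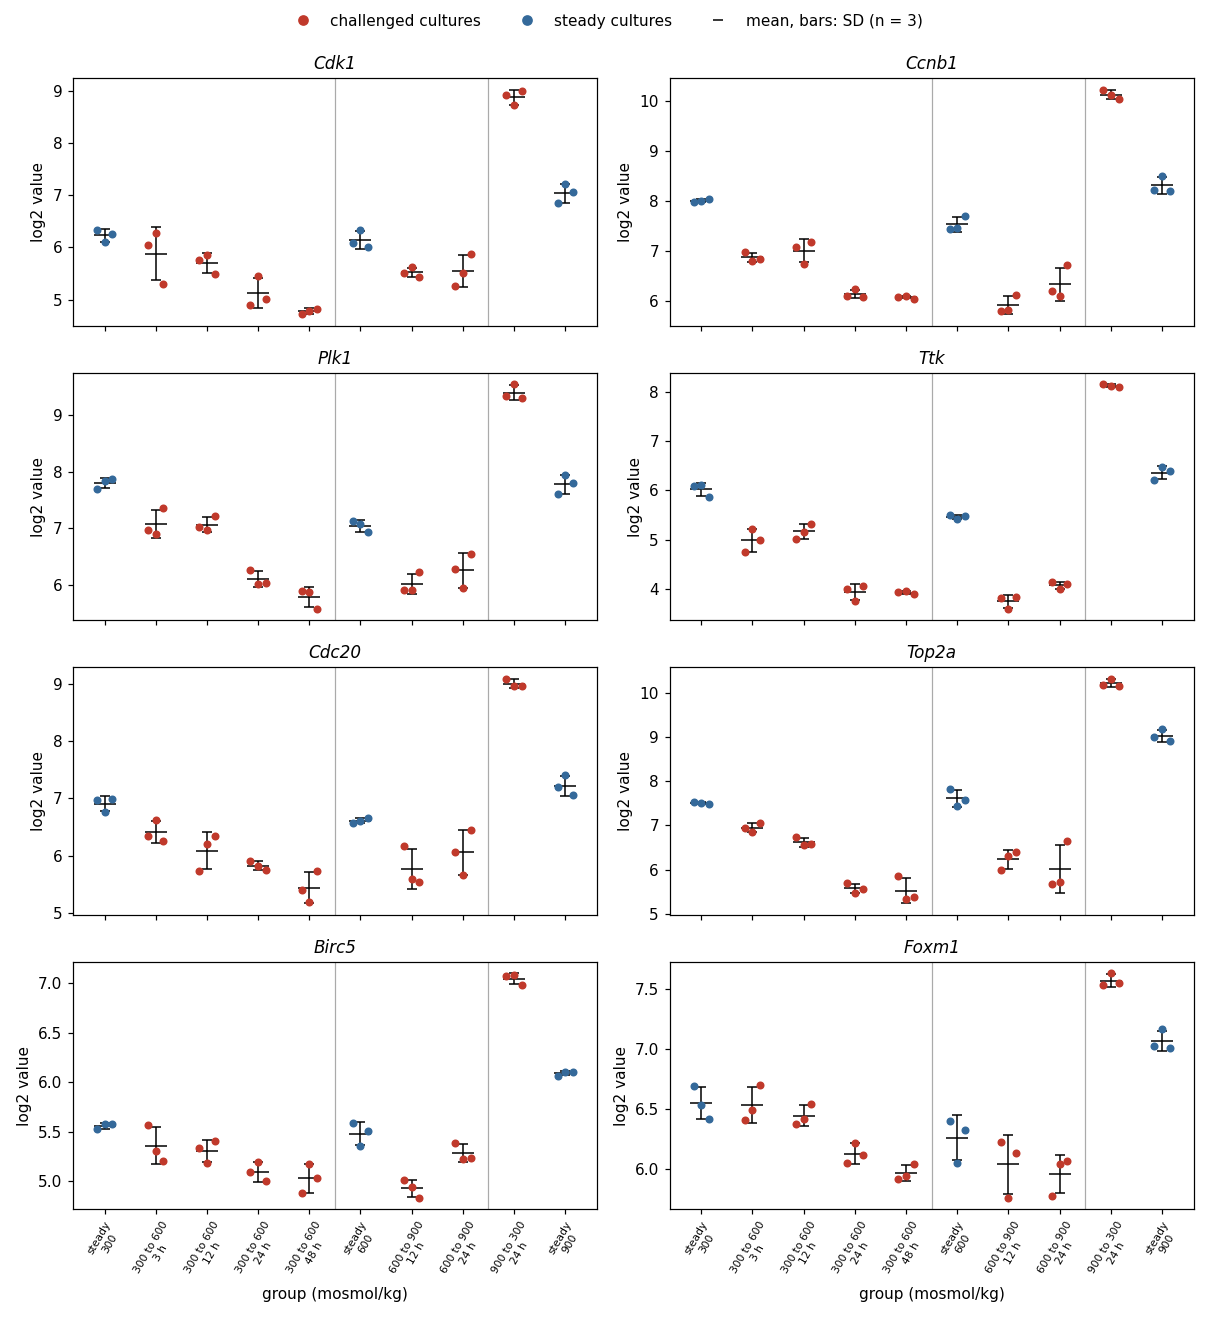
Log2 value of 8 followed genes on every array (points) with the group mean ± SD (bars, n = 3 arrays), by group. In each gene the 3 returned arrays lie above the arrays of the other 9 groups, and values after both upward moves lie low.

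Other cells in the cultures differed between these groups as well. All 9 fibroblast markers listed were measured, and they averaged 6.27 (6.21 to 6.30 over arrays) in returned cells, 6.33 (6.31 to 6.35) in steady 900 cells and 8.45 (8.43 to 8.47) in steady 300 cells. All 9 macrophage and leukocyte markers were measured too, and averaged 5.89 (5.84 to 5.97) in returned cells, 6.48 (6.41 to 6.52) in steady 900 cells and 8.71 (8.64 to 8.75) in steady 300 cells. Steady 300 cells stood far above the other groups in both lists, which were slightly lower in returned than in steady 900 cells without overlap of the arrays. The 6 endothelial markers averaged 8.11 in returned cells, 7.95 in steady 900 cells and 7.80 in steady 300 cells. The part of all these cells in the results was not tested.

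Steady 900 cells had more RNA of most mitotic genes than the other steady cultures. Against steady 300 cells 33 of the 42 were higher and 0 lower (limma, adjusted p under 0.05), where 20.2% of all genes were higher and 22.3% lower. The median change was 0.66, and 10 genes rose at least 2-fold (4.78% of all genes). Pbk, a mitotic protein kinase, had log2 values of 7.92, 8.04 and 8.02 in steady 900 cells, against 5.98, 5.97 and 5.95 in steady 300 cells. Top2a had 9.01, 9.18 and 8.90 in steady 900 cells, against 7.54, 7.5 and 7.48 in steady 300 cells. Both were well apart, with changes of 2.03 ± 0.17 for Pbk (4.07-fold, limma, adjusted p = 4.9e-11) and 1.52 ± 0.17 for Top2a. All 5 spindle genes and all 3 chromosome genes rose. Ect2 (1.85 ± 0.12), Mad2l1 (1.28 ± 0.14), Nusap1 (1.16 ± 0.14) and the kinetochore subunit Spc25 (1.06 ± 0.15) led the other roles. Among the 9 that were not called, Plk1 changed by -0.02 ± 0.14, Aurkb by 0.21 ± 0.11, Cdc20 by 0.31 ± 0.17 and Ccnb1 by 0.30 ± 0.13.

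Against steady 600 cells, steady 900 cells were higher in 40 of the 42 genes and lower in 0 (limma, adjusted p under 0.05), where 11.3% of all genes were higher and 12.9% lower. The median change was 0.93, with 16 genes up at least 2-fold (1.34% of all genes). Pbk led with 1.85 ± 0.17, followed over the other roles by Top2a (1.41 ± 0.17), Nusap1 (1.24 ± 0.14), the chromosome motor Kif4a (1.22 ± 0.14), Spc25 (1.17 ± 0.15) and Bub1 (0.95 ± 0.12). Cdca8 (-0.01 ± 0.10) and the ubiquitin-conjugating enzyme Ube2c (0.15 ± 0.11) were not called. Endothelial markers averaged 7.95 in steady 900 cells and 8.01 in steady 600 cells. Markers of fibroblasts and of macrophages and leukocytes were lower on average in the same comparison. Fibroblast markers averaged 6.33 in steady 900 cells and 7.88 in steady 600 cells, with 7 of 9 lower, and macrophage and leukocyte markers averaged 6.48 in steady 900 cells and 7.11 in steady 600 cells, with 5 of 9 lower. Their part in the result was not tested.

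Against steady 300 cells, steady 600 cells had more mitotic genes lower than higher. There 2 of the 42 were higher and 11 lower (limma, adjusted p under 0.05), where 13.7% of all genes were higher and 13.4% lower, and the median change was -0.15. Ect2 had 7.74, 7.60 and 7.45 in steady 600 cells, against 6.88, 6.89 and 6.96 in steady 300 cells, a rise of 0.69 ± 0.12. Plk1 had 7.12, 7.06 and 6.93 in steady 600 cells, against 7.69, 7.83 and 7.87 in steady 300 cells, a change of -0.76 ± 0.14. The checkpoint protein Mad2l1 (0.49 ± 0.14) was the other gene that rose, and Nuf2, of the kinetochore complex that holds microtubules, fell the most (-0.81 ± 0.16). In the checkpoint Ttk (-0.56 ± 0.10) and on the spindle Tpx2 (-0.36 ± 0.10) fell the most. The Mad2l1 call was lost without replicate 1 of steady 600 (limma, adjusted p = 0.0807), which left 1 gene higher. Fibroblast markers averaged 7.88 in steady 600 cells and 8.45 in steady 300 cells, with 5 of 9 lower and 2 higher. Their changes ran from -4.13 for Postn to 0.67 for Dcn. Macrophage and leukocyte markers averaged 7.11 in steady 600 cells and 8.71 in steady 300 cells, with 8 of 9 lower. The part of these cells in the result was not tested. Steady osmolality and mitotic RNA therefore did not run in one order over the 3 steady groups. Their medians were 7.32 at 900, 6.39 at 600 and 6.84 at 300. The means over the 42 genes were 7.36, 6.47 and 6.65, with a narrower gap between 600 and 300, where 29 genes were not called.

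The move from 300 to 600 mosmol/kg lowered the mitotic genes within 3 h. At 3 h 36 of the 42 were lower and 0 higher than in steady 300 cells (limma, adjusted p under 0.05), where 29.5% of all genes were lower and 12.1% higher. The median change was -0.54, or -0.50 relative to the median of all genes, and without replicate 3 at 3 h 30 genes were lower. Ccnb1 had 6.97, 6.80 and 6.83 at 3 h, against 7.96, 8.0 and 8.04 in steady 300 cells. Cenpk, a subunit of the inner kinetochore, had 4.37, 4.74 and 4.93 at 3 h, against 5.91, 5.73 and 5.56 in steady 300 cells. The groups did not overlap for either, with changes of -1.13 ± 0.13 (limma, adjusted p = 5.57e-08) for Ccnb1 and -1.05 ± 0.16 for Cenpk. Ttk (-1.04 ± 0.10), the kinesin Kif20b (-0.76 ± 0.12), Nusap1 (-0.73 ± 0.14) and Smc4 (-0.67 ± 0.14) fell the most in the other roles. Cdk1 had 6.05, 6.27 and 5.30 at 3 h, against 6.33, 6.10 and 6.26 in steady 300 cells, and its change was not called. Foxm1, at 6.41, 6.50 and 6.70 at 3 h against 6.69, 6.54 and 6.42 in steady 300 cells, was not called either. The comparisons of all 4 times use the same steady 300 arrays.

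At 12 h most of the genes were below steady 300 cells, and 1 was above. Of the 42, 24 were lower and 1 higher than in steady 300 cells (limma, adjusted p under 0.05), where 22.6% of all genes were lower and 11.9% higher, and the median change was -0.37. Ccna2, cyclin A2, had 5.51, 5.80 and 5.89 at 12 h, against 6.89, 7.13 and 6.88 in steady 300 cells. The condensin subunit Smc2 went the other way, with 8.69, 8.89 and 8.93 at 12 h, against 7.97, 8.21 and 8.04 in steady 300 cells. Neither pair of groups overlapped, and the changes were -1.23 ± 0.13 for Ccna2 and 0.77 ± 0.11 for Smc2 (limma, adjusted p = 1.75e-06). Nuf2 (-1.02 ± 0.16), Kif4a (-0.91 ± 0.14), Top2a (-0.89 ± 0.17), Ttk (-0.86 ± 0.10) and Nusap1 (-0.78 ± 0.14) also fell. Against 3 h, 15 genes were higher and 3 lower at 12 h (limma, adjusted p under 0.05), where 23.1% of all genes were higher and 17.8% lower. Smc2 (1.25 ± 0.11), Mad2l1 (0.83), Cdc25c (0.80), Spc25 (0.74), Tpx2 (0.67) and Ect2 (0.67) led the genes that were higher in their roles, and Ccna2, Ccnb2 and Ube2c were lower. Without replicate 3 at 3 h the counts were 14 higher and 3 lower, and without replicate 1 at 12 h 1 gene was lower.

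The number of genes above steady 300 cells at 12 h depends on how arrays are set to one scale. Centring each array on its median shifted the median of all genes by 0.17 at both 3 and 12 h, and by 0.16 at 12 h after the move from 600 to 900. With it 8 of the 42 were higher and 17 lower at 12 h, and 0 higher and 28 lower at 3 h. Quantile normalization gave 7 higher and 20 lower at 12 h, and 1 higher and 31 lower at 3 h. Relative to the median of all genes, the members' median at 12 h was -0.36 as deposited. Centring shifts all genes of an array alike, so it cannot change this value. Over all genes, 4282 were lower and 1759 higher at 3 h as deposited, 2690 and 2644 after quantile normalization, and 2611 and 4532 after centring. At 12 h these counts were 3282 lower and 1729 higher as deposited, 2549 and 2699 after quantile normalization, and 1989 and 4666 after centring. At both times the median of the 42 genes stayed below 0 under each of the 3 other scalings tried.

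At 24 and 48 h nearly all of the genes were below steady 300 cells. At 24 h 39 of the 42 were lower and 1 higher (limma, adjusted p under 0.05), where 13% of all genes were lower and 9.4% higher. The median was -0.97 and 20 genes were down at least 2-fold (2.52% of all genes). At 48 h 40 were lower and 0 higher (limma, adjusted p under 0.05), where 12% of all genes were lower and 9.57% higher. The median was -1.42 and 29 genes were down at least 2-fold (2.09% of all genes).

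The checkpoint kinase Ttk had 4.0, 3.76 and 4.06 at 24 h and 3.94, 3.95 and 3.90 at 48 h, against 6.09, 6.11 and 5.88 in steady 300 cells. Cdk1 had 4.90, 5.44 and 5.02 at 24 h and 4.72, 4.78 and 4.83 at 48 h, against 6.33, 6.10 and 6.26 in steady 300 cells. Top2a had 5.69, 5.47 and 5.56 at 24 h and 5.84, 5.32 and 5.39 at 48 h, against 7.54, 7.5 and 7.48 in steady 300 cells. All arrays at both times lay below all steady 300 arrays for these genes. At 48 h Ttk was 4.28-fold lower (-2.10 ± 0.10, limma, adjusted p = 2.49e-15), Cdk1 2.74-fold lower (-1.45 ± 0.18) and Top2a 3.98-fold lower (-1.99 ± 0.17). Nuf2 (-2.09 ± 0.16) and Ccna2 (-2.10 ± 0.13) fell by as much as Ttk. Kif4a (-1.85 ± 0.14) led the cytokinesis genes and Nusap1 (-1.53 ± 0.14) the spindle genes. At 24 h the same 6 genes led their roles, with -2.09 for Ttk, -1.99 for Nuf2, -1.94 for Top2a, -1.93 for Ccna2, -1.68 for Kif4a and -1.37 for Nusap1.

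Cdc25c did not follow the others. It had 7.42, 7.43 and 7.52 at 24 h, against 7.01, 7.11 and 7.15 in steady 300 cells, a rise of 0.37 ± 0.09 (limma, adjusted p = 0.00187). At 48 h its change was 0.08 and was not called. Mad2l1 was not called at either time (-0.30 at 24 h and -0.35 at 48 h).

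Between 12 and 24 h the genes dropped again. In that interval 36 of the 42 genes were lower at the later time and 0 higher (limma, adjusted p under 0.05), where 9.51% of all genes were lower and 17.5% higher, and the median was -0.67. Ttk fell by 1.23 (SE 0.10) between them. In the other roles the largest falls were in Pbk (-1.09), Smc2 (-1.08), Ndc80 (-1.0), the partner of Nuf2, Tpx2 (-1.0) and Ect2 (-0.92). From 24 to 48 h 6 genes fell further and 0 rose (limma, adjusted p under 0.05), where 0.917% of all genes were lower and 1.88% higher. These 6 were Spc25 (-0.72 ± 0.15), the spindle assembly factor Tpx2, Racgap1 and Kif20a of the central spindle, Aurka and Prc1. The calls of Aurka and Prc1 were lost in 4 alternatives each, that of Racgap1 in 3 and that of Kif20a in 2.

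After 48 h at 600 mosmol/kg the genes were also below those of cells grown at 600 throughout. There 38 of the 42 were lower and 0 higher than in steady 600 cells (limma, adjusted p under 0.05), where 12.5% of all genes were lower and 9.47% higher. The median was -1.22, and 24 genes were down at least 2-fold (2.28% of all genes). Top2a, with 5.84, 5.32 and 5.39 at 48 h against 7.82, 7.45 and 7.58 in steady 600 cells, fell the most (-2.10). Ect2 (-2.00), Pbk (-1.85), Ttk (-1.54), Nusap1 (-1.45) and Cenpk (-1.40) led the other roles. Cdc25c, Cdca8, Ube2c and Foxm1 were not called.

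Markers of fibroblasts and of macrophages and leukocytes were lower on average at 24 and 48 h after the move from 300 to 600. Endothelial markers averaged 7.66, 7.23, 7.43 and 7.93 at 3, 12, 24 and 48 h, against 7.80 in steady 300 cells. Fibroblast markers averaged 8.33, 7.91, 7.43 and 7.29 at 3, 12, 24 and 48 h, against 8.45 in steady 300 cells. Macrophage and leukocyte markers averaged 8.53, 8.75, 7.29 and 7.15 at those times, against 8.71 in steady 300 cells. In steady 600 cells the fibroblast markers averaged 7.88 and the macrophage and leukocyte markers 7.11. Their part in the results was not tested.

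**Figure D3:**
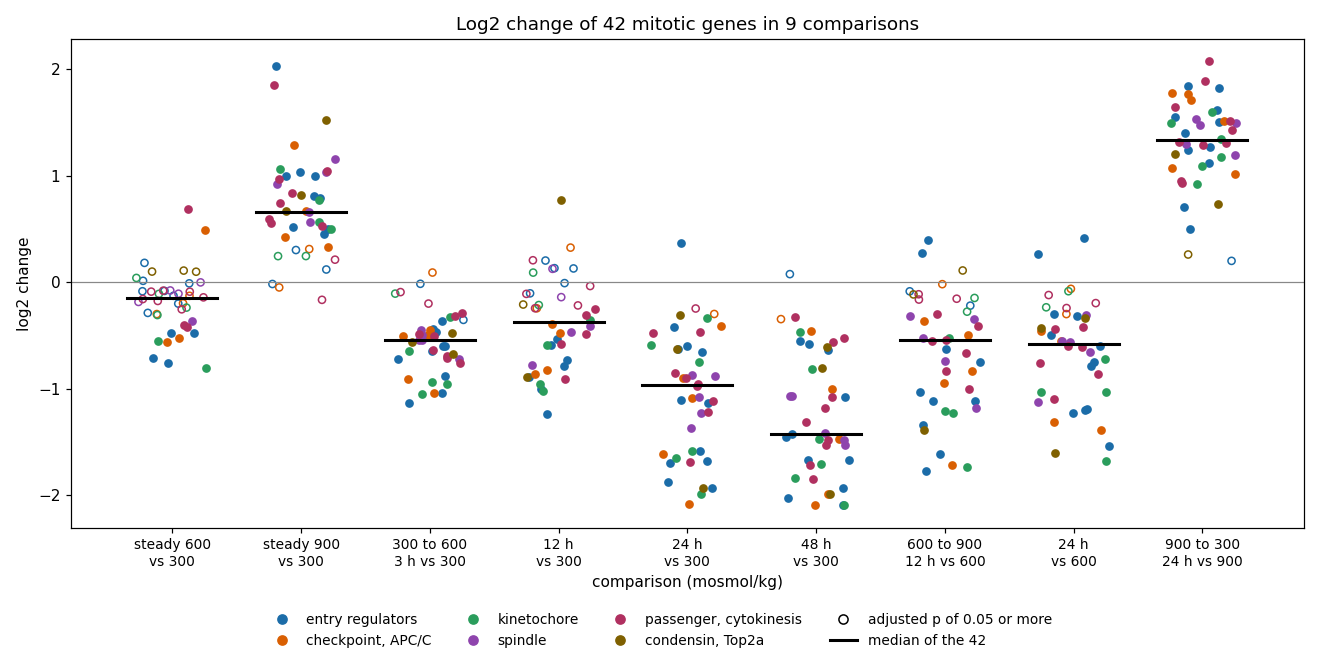
Log2 change of each of the 42 genes (points, filled where limma's adjusted p was under 0.05) in 9 comparisons, with the median of the genes as a line. The medians run from -1.42 at 48 h after the move from 300 to 600 to 1.33 in returned cells against steady 900 cells.

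The move from 600 to 900 mosmol/kg lowered the mitotic genes as well. At 12 h 30 of the 42 were lower and 2 higher than in steady 600 cells (limma, adjusted p under 0.05), where 25.3% of all genes were lower and 12.5% higher. The median was -0.55 and 13 genes were down at least 2-fold (2.84% of all genes). Without replicate 9 at 12 h 32 were lower and 1 was higher. After median centring 25 were lower and 3 higher, with 2444 lower and 4018 higher over all genes, against 3672 lower and 1812 higher as deposited. At 24 h 33 were lower and 2 higher (limma, adjusted p under 0.05), where 14.7% of all genes were lower and 11.2% higher, with a median of -0.58 and 12 genes down at least 2-fold (1.5% of all genes).

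Ttk had 3.81, 3.60 and 3.84 at 12 h and 4.13, 4.0 and 4.09 at 24 h, against 5.49, 5.42 and 5.48 in steady 600 cells. Cenpk had 3.52, 3.79 and 3.76 at 12 h and 3.72, 3.38 and 4.13 at 24 h, against 5.55, 5.37 and 5.34 in steady 600 cells. Top2a had 5.99, 6.31 and 6.39 at 12 h and 5.68, 5.72 and 6.64 at 24 h, against 7.82, 7.45 and 7.58 in steady 600 cells. None of these overlapped with steady 600, and Ttk was 3.29-fold lower at 12 h (-1.72 ± 0.10, limma, adjusted p = 1.2e-13) and 2.62-fold lower at 24 h. Pbk (-1.54 ± 0.17), Nusap1 (-1.12 ± 0.14) and Ect2 (-1.10 ± 0.12) led entry, spindle and cytokinesis at 24 h, and the same genes led these roles at 12 h.

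The genes that rose were Nek2, a kinase that splits the centrosomes before mitosis, and again Cdc25c. Nek2 had 6.59, 6.57 and 6.74 at 12 h and 6.55, 6.42 and 6.54 at 24 h, against 6.38, 6.19 and 6.15 in steady 600 cells. Its changes were 0.39 ± 0.09 at 12 h and 0.26 ± 0.09 at 24 h. Cdc25c had 7.18, 7.31 and 7.62 at 12 h and 7.58, 7.49 and 7.47 at 24 h, against 7.12, 7.13 and 7.05 in steady 600 cells. Its changes were 0.27 ± 0.09 at 12 h and 0.41 ± 0.09 at 24 h. All moved arrays were above all steady 600 arrays for both genes. The Nek2 call at 24 h (limma, adjusted p = 0.0366) was lost in 6 of the alternatives, among them the fits without replicate 1 or 9 at 24 h and without replicate 2 or 3 of steady 600, and the Cdc25c call at 12 h (limma, adjusted p = 0.015) in 5.

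Markers of other cells were lower after this move as well. Fibroblast markers averaged 7.46 at 12 h and 7.19 at 24 h, against 7.88 in steady 600 cells, and macrophage and leukocyte markers averaged 5.92 at 12 h and 5.81 at 24 h, against 7.11 in steady 600 cells. Their part in the result was not tested.

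Between 12 and 24 h at 900 there was little net change. There 4 of the 42 were higher and 4 lower at the later time (limma, adjusted p under 0.05), where 21% of all genes were higher and 11.5% lower. Ccnb1 (0.42) and Birc5 (0.35) were among those that rose, and Smc2 (-0.45) and Bub1 (-0.36), a checkpoint kinase, among those that fell. These counts are fragile, and leaving out 1 array gave 1 to 7 higher and 1 to 8 lower. Without replicate 9 at 12 h they were 6 higher and 2 lower.

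After 24 h at 900 the genes were far below those of cells grown at 900 throughout. Of the 42, 39 were lower and 0 higher than in steady 900 cells (limma, adjusted p under 0.05), where 8.83% of all genes were lower and 9.47% higher. The median was -1.53, and 33 genes were down at least 2-fold (1.08% of all genes). Pbk had 4.14, 4.70 and 4.99 after 24 h at 900, against 7.92, 8.04 and 8.02 in steady 900 cells, a 10.46-fold difference (-3.39 ± 0.17, limma, adjusted p = 2.44e-14). Top2a was 8.1-fold lower (-3.02 ± 0.17). Cenpk (-2.76 ± 0.16), Nusap1 (-2.36 ± 0.14), Ttk (-2.28 ± 0.10) and Ect2 (-2.26 ± 0.12) led the remaining roles. Principal cell markers averaged 8.75 after 24 h at 900 and 9.07 in steady 900 cells, fibroblast markers 7.19 after 24 h at 900 and 6.33 in steady 900 cells, and macrophage and leukocyte markers 5.81 after 24 h at 900 and 6.48 in steady 900 cells. The part of these cells in the result was not tested.

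The upward moves differed in the size of the change at 12 and 24 h in some of the genes. The test took the change after the move from 600 to 900 minus that after the move from 300 to 600 at the same time. Each change was taken against its own steady culture, so a difference between the steady cultures enters the result as well. Whether the moves differed in timing was not tested. At 12 h 9 of the 42 had a lower change after the move to 900 and 0 a higher one (limma, adjusted p under 0.05), where 7.25% of all genes were lower and 6.18% higher. At 24 h 14 had a higher change and 0 a lower one (limma, adjusted p under 0.05), where 7.48% of all genes were higher and 5.46% lower. The count at 12 h rests on single arrays, being 15 without replicate 9 at 12 h and 5 without replicate 1 at 12 h after the move to 900.

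Pbk changed by -1.77 at 12 h after the move to 900 and by -0.59 at 12 h after the move to 600, a difference of -1.19 ± 0.25 (limma, adjusted p = 0.001). For Ect2 the change was -1.01 after the move to 900 and -0.04 after the move to 600, a difference of -0.97 ± 0.17. Kif20a, the motor that carries the passenger complex to the central spindle, changed by -0.24 at 24 h after the move to 900 and by -1.22 at 24 h after the move to 600, a difference of 0.98 ± 0.16 (limma, adjusted p = 3.86e-05). Nek2 at 24 h changed by 0.26 after the move to 900 and by -0.60 after the move to 600, a difference of 0.86 ± 0.13. Ttk and Ccnb1 were in both sets, with opposite signs. The Ttk difference was -0.86 ± 0.15 at 12 h and 0.70 ± 0.15 at 24 h, and that of Ccnb1 was -0.61 ± 0.18 at 12 h and 0.68 ± 0.18 at 24 h. The Ccnb1 call at 12 h was lost in 5 alternatives. Among the other leading genes of a role, the difference at 12 h was -0.78 ± 0.22 for Cenpk, -0.66 ± 0.15 for Smc2 and -0.47 ± 0.14 for Tpx2. At 24 h it was 0.96 ± 0.23 for Nuf2, 0.92 ± 0.19 for Plk1 and 0.78 ± 0.14 for Dlgap5, a spindle assembly factor. The steady cultures differed as well. At 24 h Nuf2 averaged 4.93 after the move to 900 and 4.78 after the move to 600. Its steady means were 5.96 at 600 and 6.77 at 300. Kif20a averaged 6.17 after the move to 900 and 5.59 after the move to 600 at this time. Its steady means were 6.41 at 600 and 6.82 at 300.

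**Figure D4:**
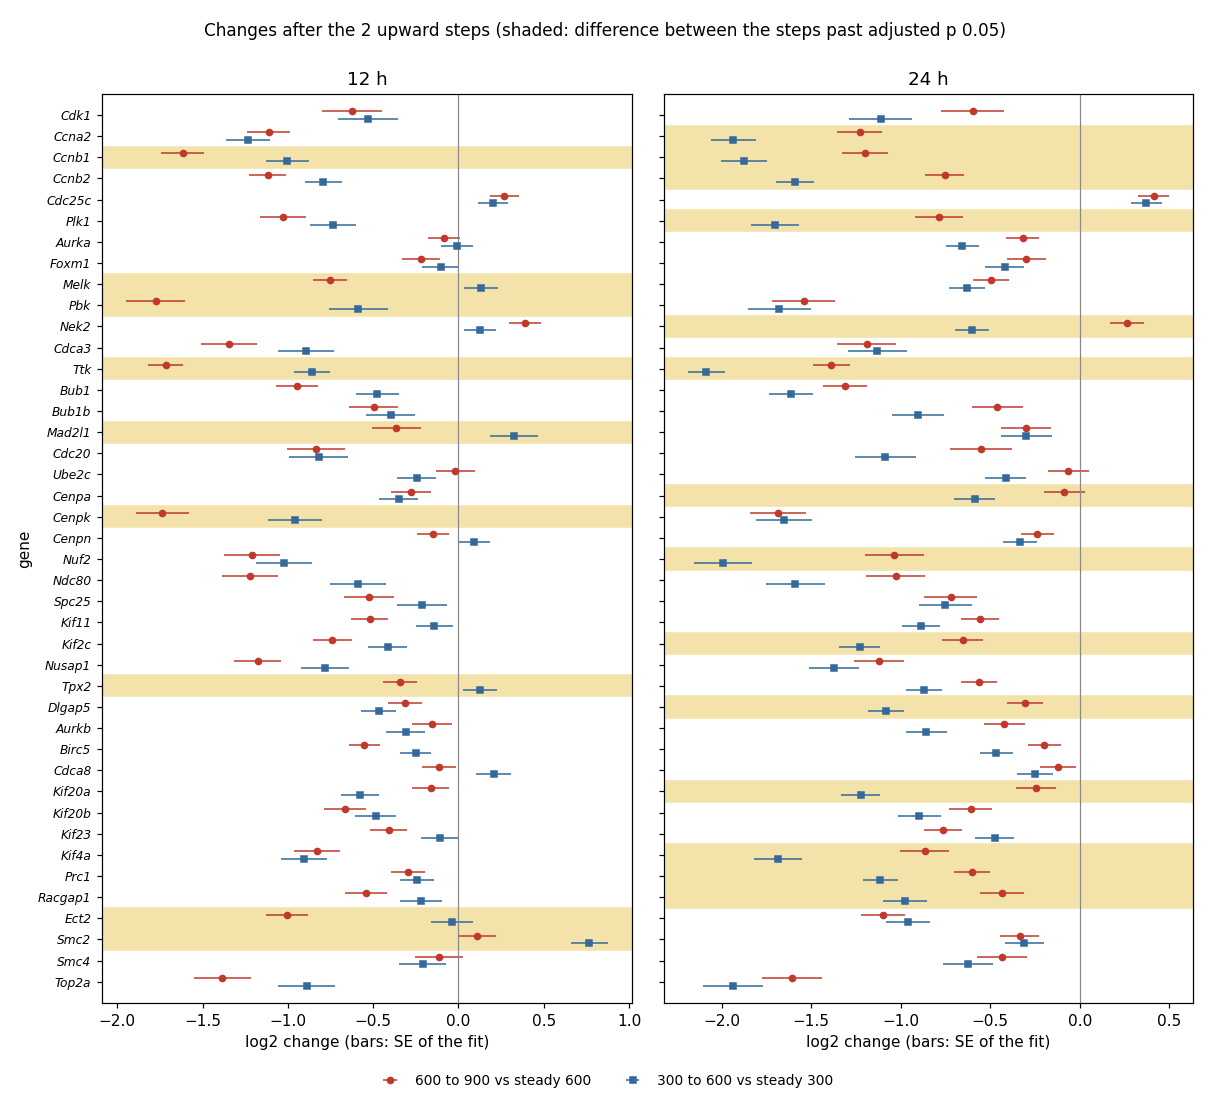
Log2 change ± SE (bars) of each of the 42 genes after the move from 600 to 900 (red) and after the move from 300 to 600 (blue), each against its own steady culture, at 12 and 24 h. Shading marks the 9 genes at 12 h and the 14 at 24 h whose difference between the moves had a limma adjusted p under 0.05.

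Genes with neighbouring functions give the setting. Another 48 mitotic genes were measured of 67 listed, and 43 of them were higher and 0 lower in returned cells than in steady 900 cells (limma, adjusted p under 0.05, as for the counts that follow). At 48 h after the move from 300 to 600, 34 of the 48 were lower and 0 higher than in steady 300 cells. Of 38 S phase genes measured, 35 were higher and 0 lower in returned cells than in steady 900 cells, and 22 were lower and 1 higher at 48 h than in steady 300 cells. The backgrounds for these counts are those given above for the same comparisons. In returned cells Ska1 (2.06 ± 0.13) and Cep55 (1.75 ± 0.17) led the mitotic genes, and Rfc4 (1.63 ± 0.13) and Gins1 (1.52 ± 0.14) the S phase genes. At 48 h Cep55 (-1.65 ± 0.17) and Hmmr (-1.47 ± 0.14) led the mitotic genes, and Rrm2 (-2.14 ± 0.13), of ribonucleotide reductase, and Mcm5 (-1.49 ± 0.14), of the replicative helicase, the S phase genes. Mybl2, the MYB partner of the MuvB complex, rose by 1.74 ± 0.12 in returned cells against steady 900 cells and fell by 1.81 (SE 0.12) at 48 h against steady 300 cells. Of 14 subunits, activators and partner enzymes of the anaphase-promoting complex, 8 were higher and 1 lower in returned cells than in steady 900 cells. At 48 h 1 was lower and 0 higher than in steady 300 cells. Ube2s (0.64) and Cdc23 (0.62) rose the most in returned cells, and Cdc23 (-0.34) was the gene lower at 48 h.

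Inhibitors of cyclin-dependent kinases moved in both directions in returned cells. Of 8 inhibitors and pocket proteins, 4 were higher and 3 lower than in steady 900 cells, where 19.3% of all genes were higher and 18.5% lower. Cdkn1c (p57) averaged 7.56 in returned cells and 9.14 in steady 900 cells (-1.58 ± 0.09), and the pocket protein Rbl2 averaged 7.58 in returned cells and 8.80 in steady 900 cells (-1.22 ± 0.10). Cdkn1b (p27) fell as well (-0.70 ± 0.09), while Cdkn1a (p21) rose by 0.92 ± 0.09. In steady 900 against steady 300 cells, 5 of the 8 were higher and 3 lower, where 20.2% of all genes were higher and 22.3% lower. The changes ran from -1.29 for Cdkn2b to 1.80 for Cdkn1c. At 48 h after the move from 300 to 600, 1 of the 8 was lower and 0 higher (12% and 9.57% of all genes). The lowest change was -0.74, for Cdkn2c. None of the 4 named before was called, with changes of 0.14 for Cdkn1c, 0.22 for Rbl2, 0.18 for Cdkn1b and -0.05 for Cdkn1a. At 24 h after the move from 600 to 900, Cdkn1b (0.56), Rbl2 (0.49) and Cdkn1c (0.46) were higher than in steady 600 cells and Cdkn1a (-0.33) was lower. Ccnd1, cyclin D1 of the G1 phase, rose by 0.70 ± 0.08 in returned cells against steady 900 cells, and fell by 0.68 (SE 0.08) at 48 h against steady 300 cells.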

How the data were processed

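The authors deposited 1 log2 value per probe set and array for 30 Affymetrix Rat Gene 1.0 ST arrays, made by RMA (robust multi-array average), as named per the submitters' processing notes. The version and settings of RMA were not given in the sources used here. RMA scales arrays to each other, so changes are relative to the other genes. Of 29170 probe sets, 15310 had 1 symbol in the platform annotation, and the brightest per symbol gave 14506 genes. Among the members, Ccnb2 and Nek2 had 2 such probe sets. The means of the 2 Nek2 probe sets over the arrays were equal to every digit given (6.541), so averaging them may be no separate check.

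Groups come from sample titles. All 30 arrays were fitted in limma 3.58.1 (R 4.3.3) with 1 mean per group, lmFit and eBayes, with Benjamini-Hochberg adjustment over all 14506 genes at 0.05. Fold changes are on the RMA scale, and 3 arrays per group limit the precision. A difference between moves is a contrast of the same fit. The scripts were tested on simulated data.

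The members, the other gene lists and the marker lists were chosen with earlier results of these data known. In each comparison the text names the called member with the largest change in each role and any called member that moved against most others. Cdk1, Ccnb1, Ccna2, Foxm1, Plk1, Aurkb, Ttk, Bub1, Cdc20, Top2a, Mki67 and Birc5 were to be followed throughout, of which Mki67 was not found by the rule. Of the other lists described, the 2 largest called changes and some fixed cell cycle genes are named. A few further genes were named after their values were seen. Promoter windows come from RefSeq (GRCr8). Same-numbered replicates were checked for pairing, and the correlations of their deviations lay between -0.10 and 0.24, so they were not treated as pairs. Alternatives were quantile normalization, median centring, cyclic loess, a filter on dim genes, averaging the probe sets of each gene, array weights, trend and robust eBayes, a fit of only the compared arrays, the replicate block and leaving out each array, with leaving out the 3 arrays numbered 9 added after seeing the data.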

Additional observations from a re-analysis of the deposited data

Results flagged for a closer look

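The change after the upward moves differed between them by a direct test of the difference (limma, adjusted p under 0.05). Each change was taken against its own steady culture, so a difference between steady 600 and steady 300 cells enters the result. At 12 h 9 of the 42 genes had a lower change after the move from 600 to 900 than after the move from 300 to 600. Over all genes this share was 7.25%. The 9 were Ttk, Ccnb1, Pbk, Cenpk, Tpx2, Ect2, Melk, Mad2l1 and Smc2. Their number was not stable, being 5 without replicate 1 at 12 h after the move to 900 and 16 with array weights. At 24 h 14 of the 42 had a higher change after the move from 600 to 900, where 7.48% of all genes did. The 14 were Ttk, Ccnb1, Ccnb2, Ccna2, Plk1, Cenpa, Kif20a, Kif2c, Kif4a, Nuf2, Prc1, Dlgap5, Nek2 and Racgap1. The calls of Cenpa and Racgap1 at 24 h were lost in 12 and 11 alternatives.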

How the results depend on the processing

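Totals of called genes stayed within 1.5 times their value in 309 of 316 alternatives, and counts of higher and of lower genes in 591 of 632. Of 544 called changes of single genes, 75 lost the call in at least 1 alternative and 0 reversed, and 0 of the 246 called changes of at least 2-fold lost it. Median centring gave members' medians of -0.37 at 3 h, -0.20 at 12 h and -0.88 at 24 h after the move from 300 to 600, -0.76 for 24 h against 12 h, and -0.39 at 12 h after the move from 600 to 900. Quantile normalization gave -0.89 at 24 h and -1.31 at 48 h. Leaving out 1 array gave -1.01 to -0.92 at 24 h, -1.45 to -1.34 at 48 h, and 2.04 to 2.11 for returned against steady 300 cells. Under the replicate block that last median was 2.03, and with the block 1 gene in place of 2 was higher at both 12 and 24 h after the move to 900, while no total of called genes moved by over 1.5 times. When the fit held the compared arrays alone, 2 genes were called for 48 h against 24 h and 4 for 24 h against 12 h after the move to 900, where leaving out 1 array gave 5 to 9. The difference between moves at 12 h called 16 genes with array weights and 16 without the 3 arrays numbered 9, and 5 to 15 when 1 array was left out. Values that were not called changed sign for Plk1 in steady 900 against steady 300 cells (0.0216 with median centring, -0.0978 to 0.0704 without 1 array) and for Foxm1 at 3 h (0.159 with quantile normalization, 0.154 with median centring, 0.0317 with cyclic loess, -0.0971 to 0.0553 without 1 array). The same held for Foxm1 at 12 h (0.0708 with quantile normalization and 0.0672 with median centring) and for Aurkb at 12 h after the move to 900 (0.0081 with quantile normalization). The causes of these shifts were not tested. The 3 arrays per group limit the detection of small changes.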
